A study of Mus musculus with 10 samples.

Results

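A set of 9 genes of MHC class I antigen presentation was followed in the α cell line αTC1, namely the heavy chain genes H2-K1, H2-D1 and H2-T23, the light chain gene B2m, the peptide loading genes Tap1, Tap2, Tapbp and Erap1, and the regulator gene Nlrc5. They were taken by symbol from a count table of 33212 genes, and all 9 were found, each on 1 row. One group of cells had been given 10 μM enzalutamide, an antiandrogen drug, for 48 h, and the other the solvent DMSO for the same time, with 5 libraries labelled as biological replicates in each group. Both groups grew in low-glucose DMEM with serum, and the libraries were made from polyadenylated RNA. αTC1 is 1 tumour line, derived from islet tumours of mice in which the glucagon promoter drives the SV40 large T antigen, so it stands for α cells only as far as a dividing line does. Its H2 haplotype is not given in the labels.

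Class I molecules carry short peptides from the inside of a cell to its surface, where CD8 T cells inspect them. The peptides are cut by the proteasome, pumped into the endoplasmic reticulum by the transporter made of the Tap1 and Tap2 products, trimmed by the aminopeptidase Erap1, and fitted by tapasin (Tapbp) onto a heavy chain paired with the B2m product. In pancreatic islets the pathway is known for its part in type 1 diabetes, where islet endocrine cells show raised class I. Nlrc5 is the transactivator that drives class I genes through a conserved promoter module, and interferons are its best known inducers.

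The classical heavy chain genes H2-K1 and H2-D1 and all 4 loading genes were higher in enzalutamide than in DMSO, by 1.16-fold for Tapbp up to 1.71-fold for Tap2. The light chain gene B2m did not pass the test, and the non-classical heavy chain gene H2-T23 lay on the other side of 0 without passing either. Nlrc5 was close to the detection limit in both groups. Each gene was tested within 1 edgeR quasi-likelihood fit over all genes, with p-values adjusted over 14156 genes, and a gene passed at an adjusted p under 0.05. Of the 8 class I genes with enough counts to test, 6 were higher and 0 lower, against 19.0% of all genes tested that were higher and 18.8% that were lower. The median log2 fold change of these 8 genes was 0.37, against 0.01 over all genes tested. These genes were proposed with results of the same data known, so the counts describe them and carry no test of the group. In cell populations like these, fewer cells with a transcript and less transcript per cell cannot be told apart.

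The promoters of the heavy and light chain genes are shown because the class I genes are known to share regulatory elements there. The RefSeq promoter table on GRCm38.p6 held 7 of the 9 genes, with 250 bases before and 50 bases after each annotated start. The 4 windows below run 5′ to 3′ on the gene's strand, at chr17:34000298-34000597 (minus strand) for H2-K1, chr17:35262844-35263143 (plus strand) for H2-D1, chr17:36032652-36032951 (minus strand) for H2-T23 and chr2:122147437-122147736 (plus strand) for B2m. Capitals mark matches on either strand, overlaps included, to 5 words, namely CCAAT of the NF-Y site, TGACG of the cAMP response element, a class I κB word, an immunoglobulin κB word and an interferon response word in which GAAA recurs after 2 bases. The class I κB word is the 10-base run in capitals that starts at position -111 from the annotated start in H2-K1 and -171 in H2-D1, and the immunoglobulin κB word lies on the minus strand at -126 in B2m. TGACG was likewise at -41 in H2-K1 and -101 in H2-D1, and the plus-strand CCAAT at 8 and -53. The annotated starts of H2-K1 and H2-D1 thus lie at different points of similar sequence, and these positions do not compare the elements themselves.
H2-K1: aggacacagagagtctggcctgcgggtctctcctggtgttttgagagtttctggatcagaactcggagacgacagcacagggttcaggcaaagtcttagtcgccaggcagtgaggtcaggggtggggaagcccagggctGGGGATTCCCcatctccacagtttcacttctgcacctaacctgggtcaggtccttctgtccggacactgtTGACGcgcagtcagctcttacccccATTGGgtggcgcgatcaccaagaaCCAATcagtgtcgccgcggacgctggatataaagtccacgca
H2-D1: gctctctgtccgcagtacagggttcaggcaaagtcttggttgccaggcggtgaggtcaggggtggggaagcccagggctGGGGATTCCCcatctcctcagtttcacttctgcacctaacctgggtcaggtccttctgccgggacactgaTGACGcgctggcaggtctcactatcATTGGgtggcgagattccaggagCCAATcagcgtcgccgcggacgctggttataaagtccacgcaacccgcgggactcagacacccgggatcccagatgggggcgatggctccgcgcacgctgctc
H2-T23: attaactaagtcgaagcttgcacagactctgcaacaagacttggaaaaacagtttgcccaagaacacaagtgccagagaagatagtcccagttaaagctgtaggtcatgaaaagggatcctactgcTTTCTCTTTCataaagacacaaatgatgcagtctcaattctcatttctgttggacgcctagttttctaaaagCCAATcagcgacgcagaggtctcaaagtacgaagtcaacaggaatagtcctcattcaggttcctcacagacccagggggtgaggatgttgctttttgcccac
B2m: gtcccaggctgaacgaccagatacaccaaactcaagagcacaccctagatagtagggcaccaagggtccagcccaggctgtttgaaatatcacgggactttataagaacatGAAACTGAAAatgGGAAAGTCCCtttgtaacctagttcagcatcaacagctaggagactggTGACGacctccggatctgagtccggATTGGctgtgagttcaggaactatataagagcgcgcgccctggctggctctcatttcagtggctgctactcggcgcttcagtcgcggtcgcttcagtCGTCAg

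The H2-K1 and H2-D1 windows were alike, with 206 of 228 aligned positions identical (90.4%). Both held the class I κB word, the letters of a known NF-κB element of these genes, which occurred in 0.104% of 27025 gene promoters of the same length. The immunoglobulin κB word was found in the B2m window and in 0.144% of promoters. The interferon response word was present in the H2-T23, B2m and Erap1 windows and in 3.49% of promoters. Only exact matches were counted, so a window without a match can still hold a variant of the element. Shortly after the class I κB word, the H2-K1 and H2-D1 windows both held a near form of the interferon word. Read on the opposite strand, it has GAA, then 2 bases, then GAAA. TGACG, part of the cAMP response element, was in the H2-K1, H2-D1, B2m and Tap1 windows and in 21% of promoters. CCAAT, the word bound by NF-Y, was in 6 of the 7 windows, all but that of Erap1, and in 37.9% of promoters. H2-T23 aligned with H2-D1 over 96 positions, of which 63.5% were identical. These are matches of letters, and none of them shows that a factor was bound in these cells.

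Deposited counts per library summed to between 59557697 and 68603842, and values are given as CPM, counts relative to the normalised library size. A count of 0 allows up to 3 counts, which was 0.0439 to 0.0497 CPM, a limit for counting error only. Of all genes tested 37.8% passed in either direction, and 50.3% of those were higher, or 60.7% when libraries were scaled by total counts alone and 43.2% when trends with GC content and length were removed. The line carried high Gcg, at 8466 ± 389 CPM in enzalutamide and 15269 ± 440 CPM in DMSO (SD, n = 5 each). Of 9 blood cell markers, 3 including Ptprc (CD45) were at 0 in every library, and their summed level ran from 1.64 to 2.19 CPM in enzalutamide and from 1.17 to 2.38 CPM in DMSO. Fibroblast markers summed to between 7.6 and 9.91 CPM in enzalutamide and between 6.6 and 7.73 CPM in DMSO, most of it from Pdgfra, which was higher (log2 fold change 0.37, edgeR adjusted p = 0.00212), while Col1a2 was lower (-1.44, edgeR adjusted p = 0.0048), and 0 of the 5 were at 0 throughout. Endothelial markers summed to at most 0.54 CPM in enzalutamide and 0.668 CPM in DMSO, with Cdh5 at 0. Markers of β and δ cells summed to at most 2.13 CPM in enzalutamide and 2.84 CPM in DMSO, with Ins1, Pdx1 and Sst at 0. Among α cell markers 5 of 8 tested were lower and 0 higher, against 18.8% lower and 19.0% higher of all genes tested. Irx1, Irx2 and Pcsk2 did not pass (log2 fold changes 0.02, 0.01 and 0.03), and Gc was at 0. The part of these levels in the class I results was not tested.

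**Figure D1:**
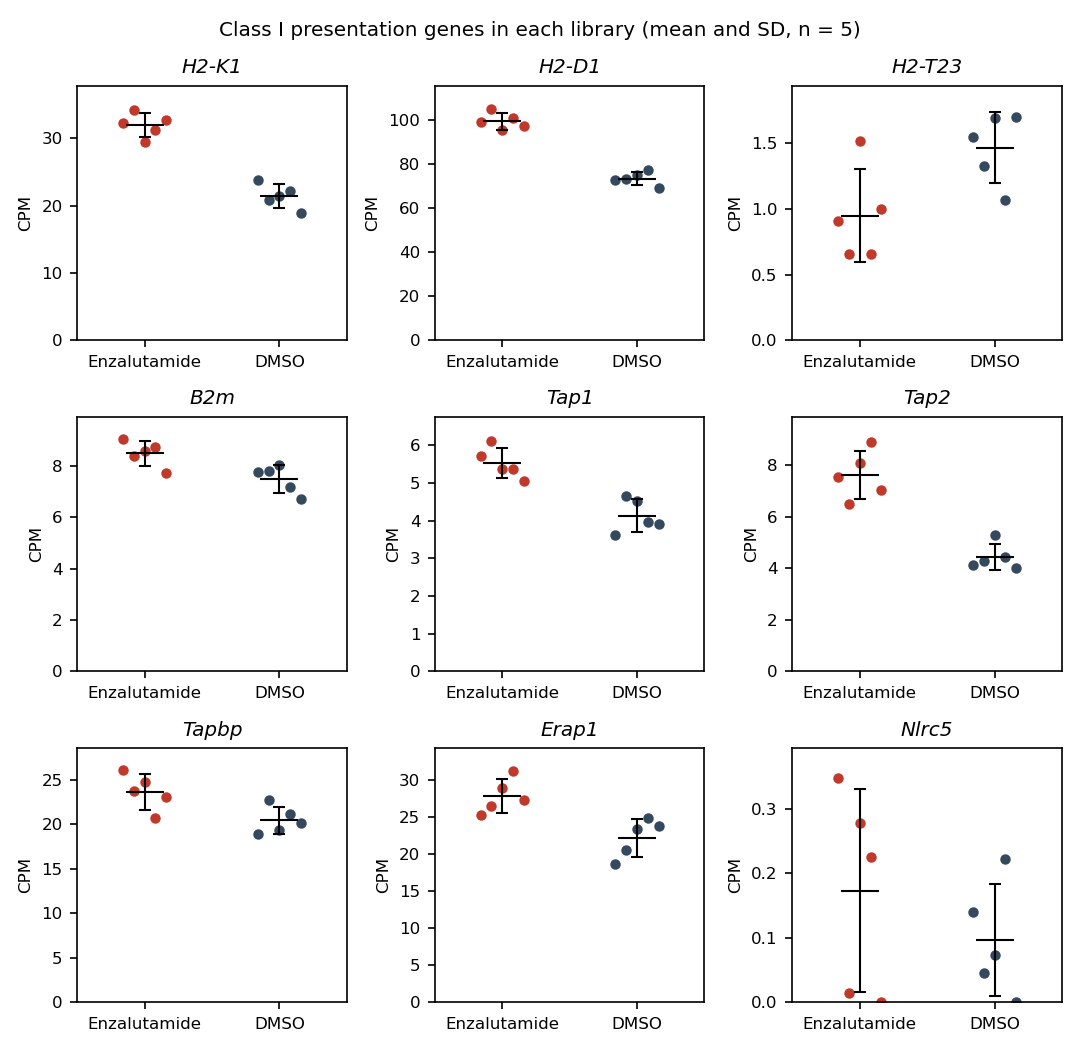
CPM of each of the 9 genes in every library, with enzalutamide left of DMSO; points are libraries, bars the mean and SD (n = 5), and each panel has its own axis from 0. For H2-K1, H2-D1, Tap1, Tap2 and Erap1 all enzalutamide points lie above all DMSO points, while H2-T23, B2m, Tapbp and Nlrc5 overlap.

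H2-K1, a classical class I heavy chain (ENSMUSG00000061232; chromosome 17, 33996017 to 34000347, minus strand, GRCm38/mm10), had 32.2, 34.2, 29.4, 31.3 and 32.7 CPM in enzalutamide libraries 1 to 5, against 23.8, 20.9, 21.5, 22.2 and 18.9 CPM in DMSO libraries 1 to 5. Every enzalutamide library was above every DMSO library. The mean was 31.9 ± 1.77 CPM in enzalutamide and 21.4 ± 1.79 CPM in DMSO (SD, n = 5 each), a 1.49-fold difference with a log2 fold change of 0.57 (SE 0.0612, edgeR adjusted p = 1.11e-06). Such a gap between the groups was found for 26.8% of all genes tested, and for 13.1% with enzalutamide above.

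The other classical heavy chain, H2-D1 (ENSMUSG00000073411; chromosome 17, 35262730 to 35267499, plus strand), was the most abundant of the 9 genes. Enzalutamide libraries 1 to 5 held 98.8, 105, 95.2, 101 and 97 CPM and DMSO libraries 1 to 5 held 72.9, 73, 74.8, 77.2 and 69 CPM. Again the groups did not overlap, and the spread within each was narrow, with a coefficient of variation of 3.94% in enzalutamide and 4.1% in DMSO. H2-D1 averaged 99.5 ± 3.92 CPM in enzalutamide and 73.4 ± 3.01 CPM in DMSO (log2 fold change 0.44, SE 0.0388, edgeR adjusted p = 1.28e-07).

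H2-T23 (ENSMUSG00000067212; chromosome 17, 36029773 to 36032855, minus strand) encodes Qa-1, a non-classical heavy chain that presents leader peptides of other class I chains to the CD94/NKG2 receptors of natural killer cells. Its level was 0.91, 0.655, 1.52, 0.66 and 0.999 CPM in enzalutamide libraries 1 to 5, against 1.55, 1.33, 1.69, 1.07 and 1.7 CPM in DMSO libraries 1 to 5, from between 44 and 114 counts each. Enzalutamide library 3 lay among the DMSO values and the other enzalutamide libraries lay below all of them. The log2 fold change was -0.63 (SE 0.264, 95% interval -1.15 to -0.11) and did not pass (edgeR adjusted p = 0.0729). Without enzalutamide library 3 it was -0.86 and passed (edgeR adjusted p = 0.0149), as it did in limma-voom (adjusted p = 0.0491) and with a minimum mean of 1 CPM (adjusted p = 0.0408). The antisense transcript A930015D03Rik, which overlaps the H2-T23 locus but shares 0 exon bases with it, was at 0.883 ± 0.384 CPM in enzalutamide and 2.22 ± 1.38 CPM in DMSO (log2 fold change -1.33, edgeR adjusted p = 0.0137).

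Class I genes are close relatives, and reads can be split among them by a counting program. Of all 50-base words in annotated transcripts, 9.63% of those of H2-K1, 12.8% of those of H2-D1 and 14.5% of those of H2-T23 also occurred in transcripts of other genes. The sum over 17 class I H2 genes does not depend on how the counted reads were split among them. Reads shared with genes outside the 17 can still change it. Of the 438 shared words of H2-T23, 183 occurred in H2-T-ps, which is not among the 17. The sum ran from 167 to 176 CPM in enzalutamide and from 125 to 138 CPM in DMSO, so that the groups did not overlap, with a log2 ratio of means of 0.37. H2-K1 and H2-D1 made up 77 ± 1.67% of that sum in enzalutamide and 71.8 ± 1.44% in DMSO. The other 15 genes together stood at 39.2 ± 2.15 CPM in enzalutamide and 37.3 ± 2.58 CPM in DMSO, ranges that overlapped.

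The light chain gene B2m (ENSMUSG00000060802; chromosome 2, 122147686 to 122153083, plus strand) encodes the chain that every class I heavy chain needs to reach the surface. B2m had 9.04, 8.36, 8.57, 8.72 and 7.73 CPM in enzalutamide libraries 1 to 5, against 7.76, 7.8, 8.01, 7.16 and 6.7 CPM in DMSO libraries 1 to 5. Only enzalutamide library 5 fell within the DMSO range. The mean was 8.48 ± 0.486 CPM in enzalutamide and 7.49 ± 0.542 CPM in DMSO, with a log2 fold change of 0.18 (SE 0.0813, 95% interval 0.02 to 0.34) that did not pass (edgeR adjusted p = 0.0932). It passed when libraries were scaled by total counts (log2 fold change 0.21, adjusted p = 0.0475) and when GC and length trends were removed (0.21, adjusted p = 0.0406). None of the 50-base words of B2m occurred in another gene's transcripts (0 of 811).

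**Figure D2:**
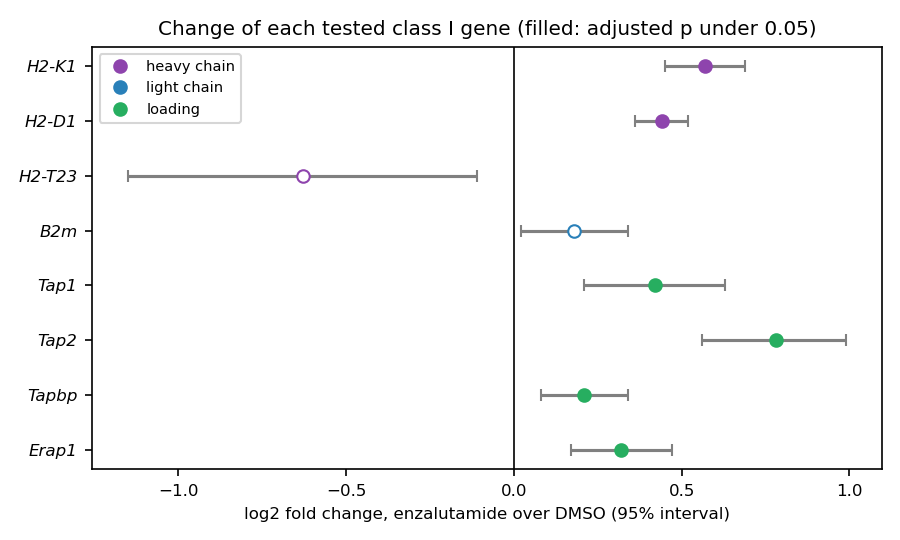
Log2 fold change (enzalutamide over DMSO) of the 8 tested genes, with bars for 95% intervals and colours for the role; filled points passed the edgeR test. Tap2 lies farthest to the right at 0.78, and H2-T23 is the only gene to the left of 0.

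Among the loading genes, Tap2, a subunit of the peptide transporter (ENSMUSG00000024339; chromosome 17, 34203527 to 34216321, plus strand), had the largest change. Its values were 7.55, 6.52, 8.09, 8.9 and 7.03 CPM in enzalutamide libraries 1 to 5 and 4.15, 4.29, 5.29, 4.45 and 4.03 CPM in DMSO libraries 1 to 5. All enzalutamide libraries were above all DMSO libraries. Tap2 averaged 7.61 ± 0.925 CPM in enzalutamide and 4.44 ± 0.502 CPM in DMSO (1.71-fold, log2 fold change 0.78, SE 0.109, edgeR adjusted p = 2.34e-05). The long noncoding transcript Gm15821, which shares 533 exon bases with Tap2 on the other strand, was at 0.218 ± 0.126 CPM in enzalutamide and 0.0268 ± 0.0598 CPM in DMSO.

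Tap1, the partner subunit (ENSMUSG00000037321; chromosome 17, 34187553 to 34197225, plus strand), had 5.73, 6.13, 5.38, 5.37 and 5.06 CPM in enzalutamide libraries 1 to 5, against 3.61, 4.67, 4.53, 3.97 and 3.92 CPM in DMSO libraries 1 to 5. Here too the groups did not overlap. The mean was 5.53 ± 0.409 CPM in enzalutamide and 4.14 ± 0.446 CPM in DMSO (1.34-fold, log2 fold change 0.42, SE 0.107, edgeR adjusted p = 0.00495). Psmb9, an inducible proteasome subunit that starts beside Tap1 on the opposite strand and shares 212 exon bases with it, averaged 1.75 ± 0.22 CPM in enzalutamide and 1.07 ± 0.188 CPM in DMSO (log2 fold change 0.71, edgeR adjusted p = 0.0108).

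Erap1, the trimming aminopeptidase (ENSMUSG00000021583; chromosome 13, 74639568 to 74693201, plus strand), had 25.3, 26.4, 28.9, 31.1 and 27.2 CPM in enzalutamide libraries 1 to 5 and 18.6, 20.5, 23.3, 24.8 and 23.7 CPM in DMSO libraries 1 to 5. The lowest enzalutamide library, at 25.3 CPM, stood just above the highest DMSO library, at 24.8 CPM. The log2 fold change was 0.32 (1.25-fold, SE 0.0765, edgeR adjusted p = 0.00271). Cast, the calpastatin gene, overlaps Erap1 by 834 exon bases on the other strand and was itself lower, at 39 ± 2.62 CPM in enzalutamide and 43.6 ± 2.08 CPM in DMSO (log2 fold change -0.16, edgeR adjusted p = 0.0207).

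Tapbp, which encodes tapasin (ENSMUSG00000024308; chromosome 17, 33915899 to 33929292, plus strand), had the smallest change of the 6 genes that passed. It had 26.1, 23.7, 24.8, 20.7 and 23.1 CPM in enzalutamide libraries 1 to 5, against 18.9, 22.7, 19.4, 21.2 and 20.1 CPM in DMSO libraries 1 to 5. Enzalutamide library 4 fell within the DMSO range. The mean was 23.7 ± 2.01 CPM in enzalutamide and 20.4 ± 1.52 CPM in DMSO (1.16-fold, log2 fold change 0.21, SE 0.0672, edgeR adjusted p = 0.019). The call was lost without enzalutamide library 1 (adjusted p = 0.0613), without DMSO library 1 (adjusted p = 0.0584) and after removal of trends with GC content and length (0.14 on the log2 scale, adjusted p = 0.0999). Of the 50-base words of Tapbp 23.2% occurred in other transcripts, 762 of those 871 in Gm19412, a gene annotated as antisense to it. Zbtb22 shares 149 exon bases with Tapbp on the same strand. It was at 48.4 ± 2.83 CPM in enzalutamide and 45 ± 1.9 CPM in DMSO (log2 fold change 0.11, edgeR adjusted p = 0.0898). The part of these shared bases in the Tapbp counts was not tested.

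Nlrc5 (ENSMUSG00000074151; chromosome 8, 94434356 to 94527272, plus strand) had 21, 1, 19, 15 and 0 counts in enzalutamide libraries 1 to 5 and 9, 3, 5, 15 and 0 counts in DMSO libraries 1 to 5. A library with 0 counts was present in each group, and the groups overlapped over most of their range. Nlrc5 averaged 0.173 ± 0.157 CPM in enzalutamide and 0.0966 ± 0.0867 CPM in DMSO, was removed by the filter on low counts, and gave p = 0.373 in an exact two-sided permutation test (n = 5 each; the smallest p this design allows is 0.00794). In the fit without a filter its log2 fold change was 0.83 (SE 1.1, edgeR adjusted p = 0.651), and neither a rise nor a fall of this transactivator was detectable in these libraries.

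When a change of at least 1.2-fold was required of the edgeR test, H2-K1 (adjusted p = 0.000324), H2-D1 (adjusted p = 0.000839) and Tap2 (adjusted p = 0.000728) still passed, as did 6.54% of all genes tested in either direction. Tap1 (adjusted p = 0.242), Erap1 (adjusted p = 0.535) and Tapbp (adjusted p = 1) did not.

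Heavy chains were set against loading genes within each library. The log2 ratio of the summed CPM of the 3 heavy chain genes to that of the 4 loading genes was 1.03, 1.16, 0.91, 1.01 and 1.07 in enzalutamide libraries 1 to 5 and 1.12, 0.87, 0.9, 0.88 and 0.79 in DMSO libraries 1 to 5. DMSO library 1 lay among the enzalutamide values, and the difference of the means was 0.12. The sum is mostly H2-D1. With every gene given the same weight, by the mean of log2 CPM, the direction turned: the log2 ratio was 0.14 ± 0.14 in enzalutamide and 0.47 ± 0.15 in DMSO, a difference of -0.32 without overlap. With H2-T23 left out of that mean, a choice made after its values were seen, the log2 ratio was 2.13 ± 0.10 in enzalutamide and 2.06 ± 0.14 in DMSO, and the groups overlapped. Against H2-K1 per kb of exon, H2-T23 stood at a log2 ratio of -5.12 ± 0.56 in enzalutamide and -3.86 ± 0.34 in DMSO, with enzalutamide library 3, at -4.24, inside the DMSO range. The sign of the heavy to loading comparison thus went with the weight that H2-T23 was given.

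**Figure D3:**
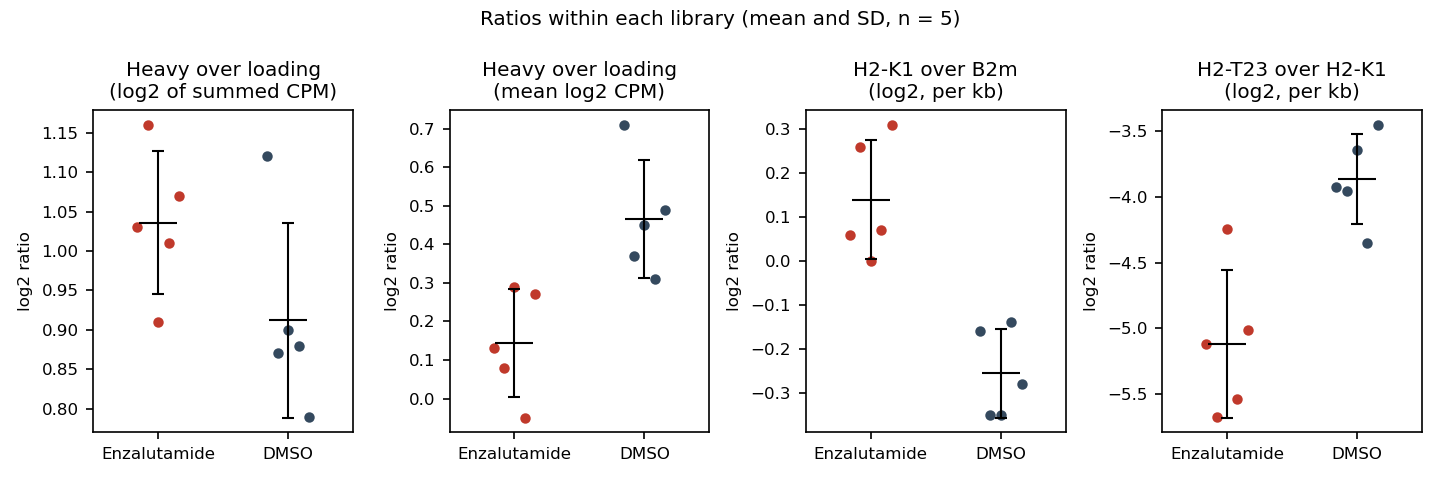
Log2 ratios within each library (enzalutamide left, DMSO right; bars are mean and SD, n = 5), with axes that do not start at 0. The heavy to loading ratio overlaps between groups when CPM are summed and lies lower in enzalutamide when log2 values are averaged; H2-K1 over B2m lies between 0.00 and 0.31 in enzalutamide and between -0.35 and -0.14 in DMSO, and H2-T23 over H2-K1 lies lower in enzalutamide except in 1 library.

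Levels of different genes were compared per kilobase of annotated exon. H2-D1 led in both groups, at 38.6 ± 1.52 CPM per kb in enzalutamide and 28.4 ± 1.17 CPM per kb in DMSO, where it stood above 86.5% of all tested genes with a known length. H2-K1 followed at 10.9 ± 0.603 CPM per kb in enzalutamide and 7.3 ± 0.61 CPM per kb in DMSO, and B2m at 9.87 ± 0.565 CPM per kb in enzalutamide and 8.7 ± 0.63 CPM per kb in DMSO. The library ranges of these neighbours overlapped in each group, and their order was not the same in both. H2-K1 was the higher of the pair on average in enzalutamide and B2m in DMSO. Within libraries the log2 ratio of H2-K1 to B2m per kb was 0.06, 0.26, 0.00, 0.07 and 0.31 in enzalutamide libraries 1 to 5, against -0.16, -0.35, -0.35, -0.14 and -0.28 in DMSO libraries 1 to 5.

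Below these, Tapbp had 6.53 ± 0.555 CPM per kb in enzalutamide and 5.64 ± 0.419 CPM per kb in DMSO, and Erap1 3.82 ± 0.313 CPM per kb in enzalutamide and 3.05 ± 0.353 CPM per kb in DMSO. The transporter subunits were scarcer, with Tap2 at 2.01 ± 0.245 CPM per kb in enzalutamide and 1.17 ± 0.133 CPM per kb in DMSO, and Tap1 at 1.01 ± 0.0748 CPM per kb in enzalutamide and 0.756 ± 0.0815 CPM per kb in DMSO. H2-T23 stood at 0.329 ± 0.123 CPM per kb in enzalutamide and 0.508 ± 0.0936 CPM per kb in DMSO, and Nlrc5 was last. Apart from H2-K1 and B2m, no neighbours in this order had overlapping library ranges within a group. Per kb, H2-D1 transcripts exceeded those of B2m 3.91-fold in enzalutamide and 3.27-fold in DMSO on the mean of log2 ratios. These are transcript levels per exon length, and the amounts of the 2 proteins were not measured.

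**Figure D4:**
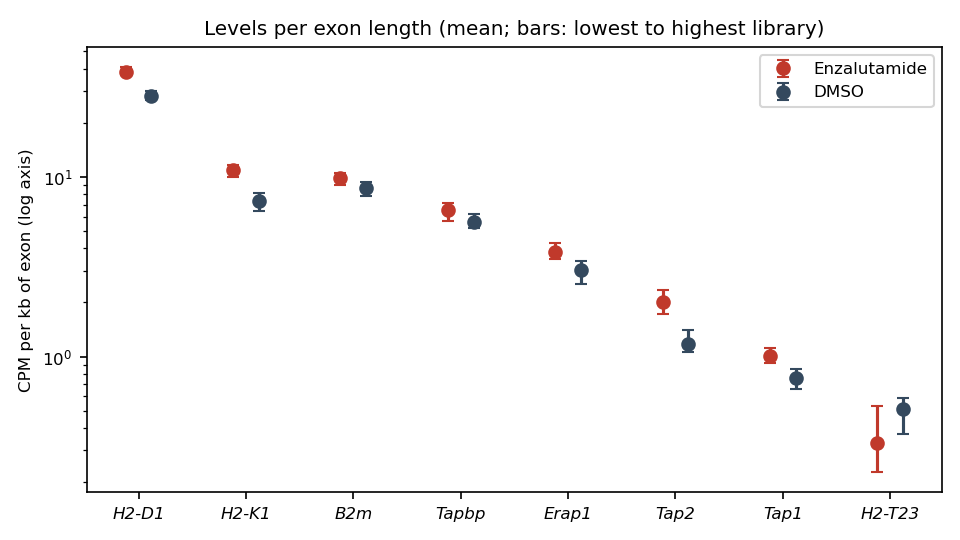
Mean CPM per kb of exon on a log axis, enzalutamide left of DMSO for each gene, with bars from the lowest to the highest library; Nlrc5, with libraries at 0, is left out. H2-D1 is highest at 38.6 CPM per kb in enzalutamide and 28.4 CPM per kb in DMSO, and H2-T23 is lowest of those drawn.

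The other heavy chain genes of the H2 region had log2 fold changes of both signs, from -0.68 for H2-Q6, which did not pass and was named after its value was seen, to 0.85 for H2-M3. Of 18 on the list 14 were on the table, 3 of them at 0 counts, and of the 9 tested 1 was higher and 0 were lower, against 19.0% and 18.8% of all genes tested, with a median log2 fold change of 0.03 (0.01 over all genes tested). The gene that passed was H2-M3, which presents formylated peptides, at 2.42 ± 0.578 CPM in enzalutamide and 1.34 ± 0.192 CPM in DMSO (log2 fold change 0.85, edgeR adjusted p = 0.0021). The most abundant were H2-Q4, at 15.3 ± 0.993 CPM in enzalutamide and 13.7 ± 1.61 CPM in DMSO (edgeR adjusted p = 0.145), and H2-T22, at 14.3 ± 1.23 CPM in enzalutamide and 14 ± 1.65 CPM in DMSO (edgeR adjusted p = 0.809). Of 7 class I-like genes 4 were at 0 and 2 were tested. Mr1, which presents vitamin B metabolites to T cells, was higher, at 3.08 ± 0.156 CPM in enzalutamide and 1.83 ± 0.321 CPM in DMSO (log2 fold change 0.75, edgeR adjusted p = 0.00102). The iron regulator gene Hfe was at 37.8 ± 2.28 CPM in enzalutamide and 36.2 ± 2.12 CPM in DMSO (edgeR adjusted p = 0.384).

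The proteasome list, whose products cut and release peptides, had 3 of 10 tested members higher and 5 lower, against 19.0% higher and 18.8% lower of all genes tested, and a median log2 fold change of -0.08. Psme1 and Psme2, the subunits of the interferon-inducible PA28 activator, were at 21 ± 1.37 and 32.9 ± 1.05 CPM in enzalutamide and at 16.1 ± 1.45 and 26.6 ± 2.17 CPM in DMSO (log2 fold changes 0.39 and 0.30, edgeR adjusted p = 0.000224 and 0.000304). With Psmb9 they were the genes that rose. Psmb8 and Psmb10, the other inducible catalytic subunits, did not pass (log2 fold changes 0.52 and -0.01, edgeR adjusted p = 0.546 and 0.943). The constitutive catalytic subunits Psmb5, Psmb6 and Psmb7 and the activators Psme3 and Psme4 were all lower, with log2 fold changes of -0.19, -0.26, -0.38, -0.19 and -0.15 in that order. Psmb5, Psmb8, Psmb9 and Psmb10 were named after their values were seen. At a minimum change of 1.2-fold, 0 genes of this list passed.

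Other genes of loading and quality control mostly went the other way from Tap1, Tap2, Tapbp and Erap1, with 10 of 15 tested lower, 1 higher and a median of -0.15, against 18.8% lower and 19.0% higher of all genes tested. They included the chaperones of the loading complex, calreticulin (Calr), at 485 ± 21.3 CPM in enzalutamide and 630 ± 11.8 CPM in DMSO (log2 fold change -0.38, edgeR adjusted p = 5.57e-08), and the oxidoreductase Pdia3, at 459 ± 9.61 CPM in enzalutamide and 562 ± 9.7 CPM in DMSO (-0.29, edgeR adjusted p = 1.44e-07). Hspa5 (BiP), Sec61b of the translocon and the cytosolic peptidase Tpp2 were lower as well, with log2 fold changes of -0.22, -0.45 and -0.20. The 1 that rose, named after its value was seen, was Sppl3, an intramembrane protease (0.18, edgeR adjusted p = 0.00309). The relative of tapasin, Tapbpl, was at 12.1 ± 1.26 CPM in enzalutamide and 12.9 ± 1.56 CPM in DMSO (edgeR adjusted p = 0.476).

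**Figure D5:**
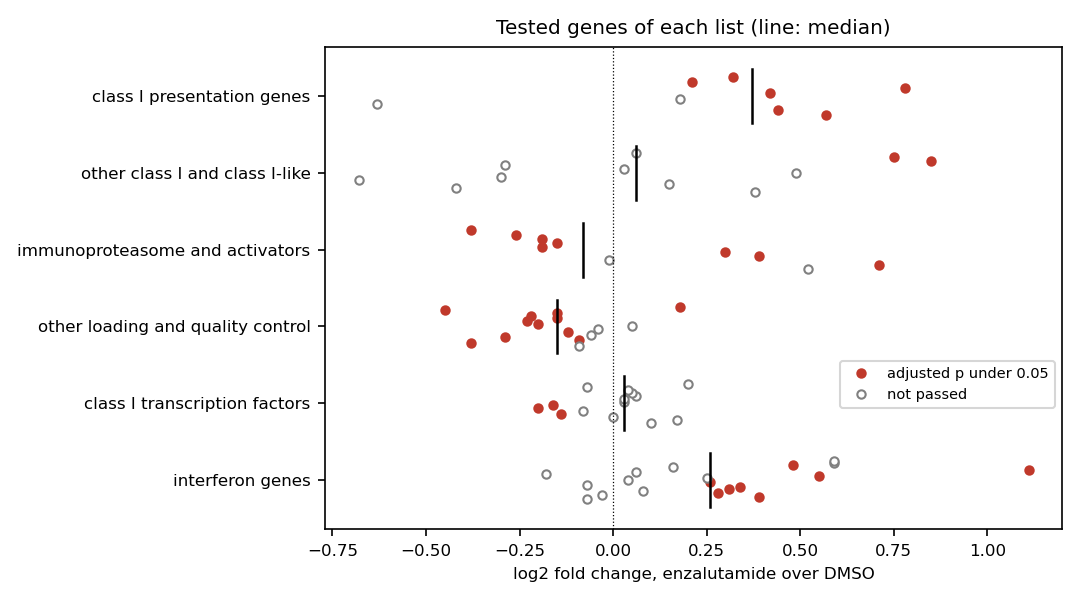
Log2 fold change (enzalutamide over DMSO) of each tested gene by list, filled where the edgeR adjusted p was under 0.05, with a line at the median of each list. The 9 class I presentation genes (8 tested) have a median of 0.37, the other loading and quality control genes of -0.15 and the transcription factors of 0.03.

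Of 14 tested factors that act on class I promoters, 0 were higher and 3 lower, against 19.0% higher and 18.8% lower of all genes tested, so that the number lower was near the share over all genes. Those lower were the NF-Y subunit genes Nfya (log2 fold change -0.14, edgeR adjusted p = 0.00754) and Nfyc (-0.20, edgeR adjusted p = 0.00183) and the cAMP response factor gene Creb1 (-0.16, edgeR adjusted p = 0.00176). The interferon-induced factor gene Irf1 and the NF-κB subunit genes Rela and Nfkb1, named after their values were seen, had log2 fold changes of 0.03, 0.04 and 0.05 and did not pass. For Irf1 the 95% interval ran from -0.15 to 0.22.

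In the interferon list 8 of 19 tested genes were higher and 0 lower, with a median of 0.26, where 19.0% of all genes tested were higher and 18.8% lower. Receptor and signalling genes were among them, namely Ifngr2 (log2 fold change 0.39), Tyk2 (0.34), Jak2 (0.31) and Stat2 (0.26), as were the interferon-induced genes Ifi35 (0.55) and Usp18 (0.48). Several genes that interferon induces strongly had few counts, such as Ifit1 with 0 in every library, Isg15 with 29 counts over the 5 enzalutamide libraries and 6 over the 5 DMSO libraries, and Gbp2 with 13 over the enzalutamide libraries and 0 over the DMSO libraries. The other untested genes of the list went both ways. Total counts in enzalutamide and DMSO were 68 and 15 for Ifit3, 20 and 4 for Xaf1 and 5 and 0 for Gbp3. They were 17 and 24 for Gbp7, 38 and 39 for Oas1a and 0 and 12 for Rtp4. With a minimum change of 1.2-fold, 2 genes of this list were higher.

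Class II presentation genes, the mark of professional antigen-presenting cells, were scarcely present. Of 10, 4 were at 0 counts in every library and 2 could be tested, of which 0 passed, and their summed level was 1.35 to 2.4 CPM in enzalutamide and 1.26 to 1.78 CPM in DMSO, most of it from H2-DMa.

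H2-D1 had the lowest p of the 9 genes, and the genes most like it were found by Pearson's r of log2 CPM over the 10 libraries, among genes with at least 5 CPM on average. They were Sptbn4 (r = 0.994), Uap1l1 (0.993), Aldh18a1 (0.99), Psat1 (0.989) and Gars (0.989). The difference between the groups enters each r, so these values describe the pattern and carry no test. Their own log2 fold changes ran from 0.36 for Psat1 to 0.53 for Uap1l1.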

How the data were processed

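Polyadenylated RNA of 10 αTC1 libraries was sequenced, and groups follow the library titles. HISAT2, StringTie, DESeq2 and the build mm10 are named in the submitters' processing notes without versions or roles, while the sources used here do not give the strand setting or the handling of multi-mapping reads. The authors deposited whole-number counts per Ensembl gene, the basis of every test. The second deposited table held a signal per gene, and multiplying it by size factors computed with DESeq2 returned the counts to within 0.000416. All columns were matched by library name and 0 were left unused.

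Counts were filtered with edgeR's filterByExpr, scaled with TMM factors and compared with the quasi-likelihood test of edgeR 4.0.16 in R 4.3.3, without covariates. CPM use the scaled library size, ± is the SD over 5 libraries, and each SE is the absolute log2 fold change over the square root of F. Positions and exon lengths came from GENCODE M21, which held 96.5% of the identifiers. The pipeline was tested on simulated counts of 14156 genes, with 50 genes changed at each of 4 folds. It recovered 52% of changes of 1.2-fold, 68% of 1.5-fold, 80% of 2-fold and 90% of 3-fold. Of 156 calls 11 were false. Small changes were thus often missed in the simulation. A far smaller share of genes was changed there than the 37.8% that passed in the data. The adjustment of p-values was therefore stricter in the simulation, and its recovery rates do not carry over to the fit of the data. Libraries of 1 group differed by more than sampling noise in every pair (chi-square over its degrees of freedom 9.23 to 37.3). The labels do not say whether replicates were separate cultures, so p-values reflect library-to-library spread, which may be technical.

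The 9 genes and all lists were chosen with earlier results of these data known. Named from each list were up to 6 passing genes with the lowest adjusted p and the 3 with the highest mean CPM, and others are marked in the text; some listed genes are not reported here. Alternatives were other scalings, filters, a replicate block, each library left out, DESeq2 1.42.0, limma 3.58.1 (voom, and trend on log2 of the deposited signal plus 1 or 8), a minimum change of 1.2-fold, removal of GC and length trends, and summing of rows that share a symbol.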

Additional observations from a re-analysis of the deposited data

How the results depend on the processing

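H2-K1, H2-D1 and Tap2 kept their direction and passed under all 22 alternatives each, with log2 fold changes from 0.53 to 0.61, from 0.38 to 0.47 and from 0.70 to 0.85. Tap1 and Erap1 lost the call only at a minimum change of 1.2-fold (log2 fold changes 0.42 and 0.32, adjusted p = 0.242 and 0.535). Tapbp (0.21) lost it there too (adjusted p = 1) and with GC and length trends removed (0.14, adjusted p = 0.0999), and leaving out single libraries gave 0.17 to 0.26 (adjusted p up to 0.0613). H2-T23 gained a call at a mean CPM of at least 1 (-0.63), in limma-voom (-0.67), in limma-trend with a pseudocount of 1 (-0.67) or 8 (-0.61, adjusted p = 0.0355), and its range without single libraries was -0.86 to -0.52. B2m gained one with total-count scaling and with the trends removed (0.21 in both). Neither gene changed sign. The heavy to loading difference of 0.12 became -0.32 with the mean of log2 values, by giving each gene the same weight. At a minimum change of 1.2-fold, 524 genes were higher and 402 lower, the other loading list had 0 higher and 2 lower, the proteasome list 0 and 0, the factors 0 lower and the interferon list 2 higher. Without single libraries the other loading list had 1 to 2 higher (2 without enzalutamide library 2) and the factors 0 to 1 higher (1 without enzalutamide library 5 or DMSO library 1). The other counts over these lists stayed within 1.5 times.

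Same-numbered libraries of the 2 groups did not deviate together (correlations -0.00849 to 0.0451, and 2 of 5 enzalutamide libraries were most like the DMSO library of the same number), so the numbers are not taken as pairs. With a replicate block 2659 genes were higher and 2637 lower, H2-T23 had -0.67 (adjusted p = 0.0455), and no other call among the 8 tested genes changed. Nlrc5 had 0 to 21 counts per library and H2-T23 44 to 114, the lowest depths among the 9 genes, and both also varied widely between libraries; the Nlrc5 difference ran from 0.033 to 0.12 CPM without single libraries.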
